A study of Mus musculus with 12 samples.

Results

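A set of 10 genes that buffer metal ions or remove reactive oxygen species was followed in mouse retina: the metallothionein genes Mt1, Mt2 and Mt3, the stress-induced genes Hmox1, Nqo1, Gclm and Txnrd1, the peroxidase gene Gpx3 and the superoxide dismutase genes Sod1 and Sod2. They were taken by symbol, and all 10 were among the 53028 genes of the deposited table and among the 16486 genes with enough signal to be tested, that is, with at least 1 CPM, the deposited read count per unit of scaled library depth, in at least 3 of 12 libraries. Poly(A) RNA of whole retina had been sequenced in 12 libraries, 3 in each of 4 groups: Pilrb1/2 -/- mice at 12 months, Pilrb1/2+/+ mice at 12 months, Pilrb1/2 -/- mice at 28 days after birth (P28) and Pilrb1/2+/+ mice at P28. The -/- groups are called knockout and the +/+ groups wild type here. The deletion was made by CRISPR in C57BL/6J zygotes, and the line was crossed back to C57BL/6J. The series text lists Pilra as well as Pilrb1/2 as deleted, while the sample labels name Pilrb1/2 alone. Each retina sample is a mixture of all retinal cell types, and no label ties a library to a mouse. The p-values below therefore measure how far these libraries spread, which may be technical.

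Metallothioneins are small cysteine-rich proteins that bind zinc and copper. In mouse, Mt1 and Mt2 are induced by zinc and by stress through the transcription factor MTF1, which binds metal response elements in their promoters, whereas Mt3 is best known from brain. Hmox1 encodes heme oxygenase 1, which breaks down heme, Nqo1 a quinone reductase, Gclm the modifier subunit of the enzyme that starts glutathione synthesis, and Txnrd1 the cytosolic thioredoxin reductase. These 4 genes are classical targets of NRF2, a factor that KEAP1 marks for degradation until oxidants or electrophiles release it, and that acts at antioxidant response elements. Gpx3 encodes a secreted selenium-dependent glutathione peroxidase, Sod1 the copper and zinc superoxide dismutase of the cytosol, and Sod2 the manganese superoxide dismutase of mitochondria. Retina is known for high oxygen use, and photoreceptors for lipids that oxidise readily.

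The promoters of the metallothionein genes are shown because Mt1 and Mt2 had the largest genotype differences of the 10 genes at P28, Mt1 also at 12 months, and all 3 belong to 1 family with a known promoter element. Each window runs from 250 bases before to 50 bases after the RefSeq start on GRCm38.p6, and 9 of the 10 genes had a window in the RefSeq promoter table. The plus-strand windows were chr8:94178839-94179138 for Mt1, chr8:94172368-94172667 for Mt2 and chr8:94152357-94152656 for Mt3, so the 3 genes lie side by side on chromosome 8. Capitals mark the metal response element core, TGCGCNC or TGCACNC on either strand.
Mt1: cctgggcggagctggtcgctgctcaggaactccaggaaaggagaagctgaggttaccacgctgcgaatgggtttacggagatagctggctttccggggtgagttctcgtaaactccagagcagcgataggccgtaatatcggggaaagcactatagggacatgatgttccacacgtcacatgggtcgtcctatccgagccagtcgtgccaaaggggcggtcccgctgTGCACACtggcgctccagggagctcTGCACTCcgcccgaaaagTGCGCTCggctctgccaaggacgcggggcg
Mt2: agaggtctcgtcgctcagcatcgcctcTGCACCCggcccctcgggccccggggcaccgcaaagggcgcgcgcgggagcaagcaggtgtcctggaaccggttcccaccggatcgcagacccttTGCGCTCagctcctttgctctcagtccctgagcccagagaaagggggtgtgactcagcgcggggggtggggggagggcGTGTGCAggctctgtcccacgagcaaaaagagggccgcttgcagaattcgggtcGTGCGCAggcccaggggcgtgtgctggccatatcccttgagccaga
Mt3: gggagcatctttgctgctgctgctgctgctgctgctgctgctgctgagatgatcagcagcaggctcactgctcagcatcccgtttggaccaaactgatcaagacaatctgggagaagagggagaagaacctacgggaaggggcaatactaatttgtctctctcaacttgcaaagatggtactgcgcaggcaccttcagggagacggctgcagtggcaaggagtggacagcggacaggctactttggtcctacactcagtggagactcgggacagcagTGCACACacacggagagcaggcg
The core occurred 3 times in the Mt1 window, 4 times in the Mt2 window and 1 time in the Mt3 window. Of 32817 RefSeq windows of the same length, 25.7% held at least 1 match, 1.97% at least 3 and 0.518% at least 4. Gclm was the only other of the 9 genes with a match in its window, with 3. The antioxidant response element core TGACNNNGC, on either strand, occurred 1 time each in the windows of Mt2, Gclm, Sod1 and 1 of the 3 Txnrd1 windows, against 12.4% of all windows. The Gclm match overlapped a metal response element match, and the others did not. These are matches of letters, not measured binding.

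Library depths were inferred by taking the positive value shared by the largest number of genes in a library as 1 read. They were 14.7 to 25.9 M reads, at which 3 reads correspond to 0.111 to 0.192 CPM. Pilrb1 and Pilrb2 were each seen in 1 of 12 libraries, at 0.052 and 0.0436 CPM, about 1 read, so they check no genotype label; Pilra was at 0.0556 to 0.309 CPM in 12-month knockout, 0.159 to 0.268 CPM in 12-month wild type, 0.441 to 1.16 CPM in the P28 knockout group and 0.133 to 0.170 CPM in its wild-type group. By Xist, 12-month wild-type libraries 1 and 2 and P28 knockout libraries 2 and 3 were female and the other 8 male. Neural retina markers were present in all 12 libraries, at summed levels of 17710 to 24326 CPM in 12-month knockout, 31468 to 38615 CPM in 12-month wild type, 18570 to 24926 CPM in the P28 knockout group and 27742 to 37818 CPM in its wild-type group. Lens markers summed to 4872 CPM in P28 knockout library 2, 1749 CPM in P28 wild-type library 3, 654 CPM in 12-month knockout library 2, 614 CPM in P28 wild-type library 2 and at most 116 CPM in the other 8. The part that sex, lens RNA and marker levels play in the results below was tested only where a fit with a sex term or without a library is named. Mitochondrial transcripts made up 9.94 to 12.6% of the signal in 12-month knockout, 7.36 to 8.29% in 12-month wild type, 4.56 to 7.08% in the P28 knockout group and 7.36 to 9.31% in its wild-type group.

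Compared per length, as RPKM summed over each gene's transcripts, the median levels over the 12 libraries were 87.1 for Sod1, 42.2 for Sod2, 28.2 for Gpx3, 18.3 for Gclm, 12.0 for Txnrd1, 5.91 for Mt1, 3.97 for Mt2, 2.16 for Mt3, 2.11 for Nqo1 and 0.807 for Hmox1. The superoxide dismutases thus stood at the top and the metallothioneins, Nqo1 and Hmox1 at the bottom of this set. Mt3 and Nqo1 overlapped almost fully (0.645 to 3.06 and 1.05 to 2.97 RPKM), as did Mt1 and Mt2 in part (3.46 to 13.6 and 1.21 to 6.30 RPKM), while the lowest Sod1 library (59.4 RPKM) lay above the highest Sod2 library (48.8 RPKM). Few reads stood behind the low genes: about 5 to 40 reads per library for Mt3, 9.6 to 46.1 for Hmox1, 8.7 to 67.7 for Mt2 and 37.8 to 211 for Mt1, against 3210 to 6172 for Sod2.

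**Figure D1:**
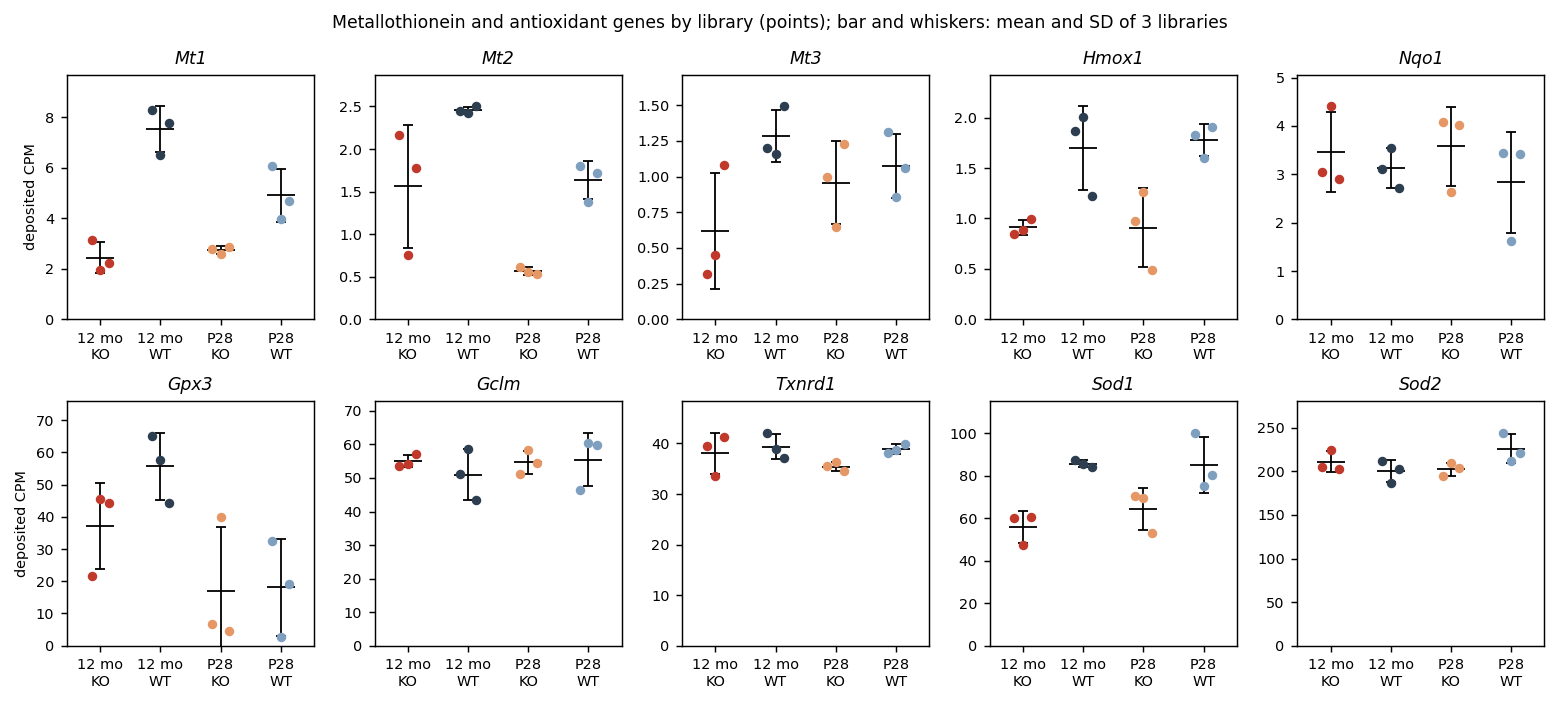
Deposited CPM (y axis, linear from 0) of the 10 genes in 12-month knockout, 12-month wild type, P28 knockout and P28 wild type (x axis). Points are single libraries, and bars and whiskers are the mean and SD of 3 libraries, with whiskers cut at 0. The 3 Mt1 libraries of 12-month knockout sit between 1.97 and 3.13 CPM, below the 6.52 to 8.28 CPM of 12-month wild type, and Gpx3 spreads from 2.56 to 65.0 CPM.

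The first comparison asked how the aged knockout retina differs from wild type at 12 months. Mt1, Mt3, Hmox1 and Sod1, 4 of the 10 genes, were called, and all 4 were lower in knockout. The limma test on log2(CPM + 1), with Benjamini-Hochberg adjustment over all 16486 genes and a threshold of 0.05, called 39.6% of all tested genes in this comparison, 23.5% lower and 16.1% higher. A count of 4 of 10 is therefore close to the share among all genes and is no result about the set. The median log2 fold change of the 10 genes was -0.48, against -0.03 for all tested genes, and 7 of 10 were negative. Of the 10, 5 had every knockout library below every wild-type library, which held for 32.2% of all tested genes.

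In GRCm38 coordinates of the deposited table, Mt1 (ENSMUSG00000031765) spans 94179082 to 94180327, Mt2 (ENSMUSG00000031762) 94172664 to 94173568, Mt3 (ENSMUSG00000031760) 94152607 to 94154146 and Hmox1 (ENSMUSG00000005413) 75093621 to 75100589 of chromosome 8, and Sod1 (ENSMUSG00000022982) 90220754 to 90226329 of chromosome 16, all on the plus strand. Mt1 was at 3.13, 1.97 and 2.21 CPM in 12-month knockout, against 8.28, 6.52 and 7.79 CPM in 12-month wild type. The highest knockout library was below the lowest wild-type library. The means were 2.44 ± 0.61 CPM in knockout and 7.53 ± 0.90 CPM in wild type (SD, n = 3 each), a log2 fold change of -1.32 ± 0.17 (SE; limma adjusted p = 0.00237). In bulk retina, fewer cells of a type and less RNA per cell cannot be told apart. All 22 alternative settings that kept Mt1 called it lower (a filter of 5 CPM in 6 libraries leaves out Mt1, Mt2, Mt3, Hmox1 and Nqo1), with log2 fold changes of -1.61 to -0.75. The 1 male wild-type library of this age, library 3, was at 7.79 CPM, above all 3 knockout libraries, which were male.

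Mt2, which shares the locus and the inducer, was at 2.16, 0.756 and 1.77 CPM in 12-month knockout, against 2.45, 2.42 and 2.50 CPM in 12-month wild type. The groups did not overlap, but the knockout libraries spread over a far wider range than the wild-type ones. Its log2 fold change of -0.47 ± 0.19 missed the threshold (adjusted p = 0.0604), and it was called in 3 of 22 settings: with a pseudocount of 5 CPM, with summed RPKM and without 12-month knockout library 1 (-0.65, adjusted p = 0.0242).

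Mt3 was at 0.317, 0.454 and 1.08 CPM in 12-month knockout, against 1.20, 1.16 and 1.49 CPM in 12-month wild type. Knockout library 3 lay just under the lowest wild-type library. The log2 fold change was -0.52 ± 0.18 (adjusted p = 0.0383), called in 12 of 22 settings. It was not called without any 1 of the 12-month knockout libraries 1 and 2, the 3 12-month wild-type libraries or P28 wild-type library 3 (-0.72 to -0.39 over all 12 left-out libraries).

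Mueller glia and astrocytes are known to make metallothioneins, so glial markers are given beside these genes. The 10 Mueller glia markers summed to 3225 to 3275 CPM in 12-month knockout and 3400 to 3763 CPM in 12-month wild type, and the 5 astrocyte markers to 153 to 193 CPM in 12-month knockout and 229 to 234 CPM in 12-month wild type. For the 8 microglia markers the sums were 56.9 to 67.4 CPM in knockout and 59.9 to 73.7 CPM in wild type. At 12 months the Mueller glia and astrocyte sums of knockout lay below those of wild type without overlap, and the microglia sums overlapped. The sums of neural retina, red blood cell and endothelial markers were also lower in knockout without overlap at this age. For the 7 endothelial markers they were 132 to 167 CPM in knockout and 175 to 182 CPM in wild type. Of all tested genes, 32.2% were lower without overlap in this comparison. At P28 the Mueller glia sums overlapped, at 2992 to 3272 CPM in knockout and 3061 to 3591 CPM in wild type. So did the astrocyte sums, at 162 to 227 CPM in knockout and 218 to 264 CPM in wild type. The part of glia in the metallothionein differences was not tested.

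Hmox1 was at 0.849, 0.887 and 0.999 CPM in 12-month knockout, against 1.86, 2.00 and 1.23 CPM in 12-month wild type. All 3 knockout libraries were below the lowest wild-type library, which was the male one. The log2 fold change was -0.49 ± 0.17 (adjusted p = 0.0381), called in 12 of 22 settings; it was -0.39 (adjusted p = 0.178) with a sex term. It was not called without any 1 of the 3 12-month knockout libraries or of 12-month wild-type libraries 1 and 2 (-0.62 to -0.40 over all 12). Markers of red blood cells, which carry most of the body's heme, summed to 4.33 to 9.94 CPM in 12-month knockout and 19.2 to 34.1 CPM in 12-month wild type; their part in the Hmox1 difference was not tested.

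Sod1 was at 60.3, 47.3 and 60.4 CPM in 12-month knockout, against 87.2, 85.6 and 83.9 CPM in 12-month wild type. The gap between the groups was larger than the range within either of them. The means were 56.0 ± 7.53 CPM in knockout and 85.5 ± 1.65 CPM in wild type (SD, n = 3 each), with a log2 fold change of -0.61 ± 0.14 (adjusted p = 0.00585). All 23 alternative settings called it, at -0.67 to -0.50. These include the fit with GC and length trends removed, which did not use the length of its main form, as described below.

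The other 5 genes did not pass. Sod2, the mitochondrial counterpart of Sod1, was at 205, 225 and 203 CPM in 12-month knockout and at 212, 187 and 203 CPM in 12-month wild type, with a log2 fold change of 0.08 and a 95% interval of -0.11 to 0.26. Txnrd1 (-0.05, interval -0.26 to 0.15) and Gclm (0.12, interval -0.15 to 0.38) had overlapping groups and narrow intervals. Wider intervals belonged to Nqo1 (0.10, -0.38 to 0.58) and Gpx3 (-0.62, -2.31 to 1.06). The 3 NRF2 targets Nqo1, Gclm and Txnrd1 therefore showed no called difference where Hmox1 did, and the difference between them and Hmox1 was not tested.

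Gene calls at this age moved when trends in GC content and transcript length were removed together. The 3 metallothionein genes are short, with mean transcript lengths of 450 to 756 bases that only 1.25 to 6.59% of tested genes match or undercut, and Mt3 is GC-rich (58.3%, at or above 92.4% of tested genes; median 49.7%). With a smooth trend in both taken out of each library, 11.3% of all genes were called at 12 months, 5.27% lower and 6.02% higher, and Mt1 stayed lower (-0.77), as did Sod1 (-0.56). Mt2 was then at -0.02, Hmox1 at -0.11 (adjusted p = 0.662) and Mt3 at 0.23 (adjusted p = 0.473), so the direction of Mt3 turned. Sod2 was called higher in that fit alone (0.38, adjusted p = 0.0266). Each length was the mean over a gene's annotated transcripts, 2306 bases for Sod1 and 1734 bases for Sod2. Most Sod1 signal was assigned to a form of 641 bases, and most Sod2 signal to a form of 5861 bases. The trend removed from these 2 genes was therefore not that of their main form. This fit cannot tell what length contributes to their differences.

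**Figure D2:**
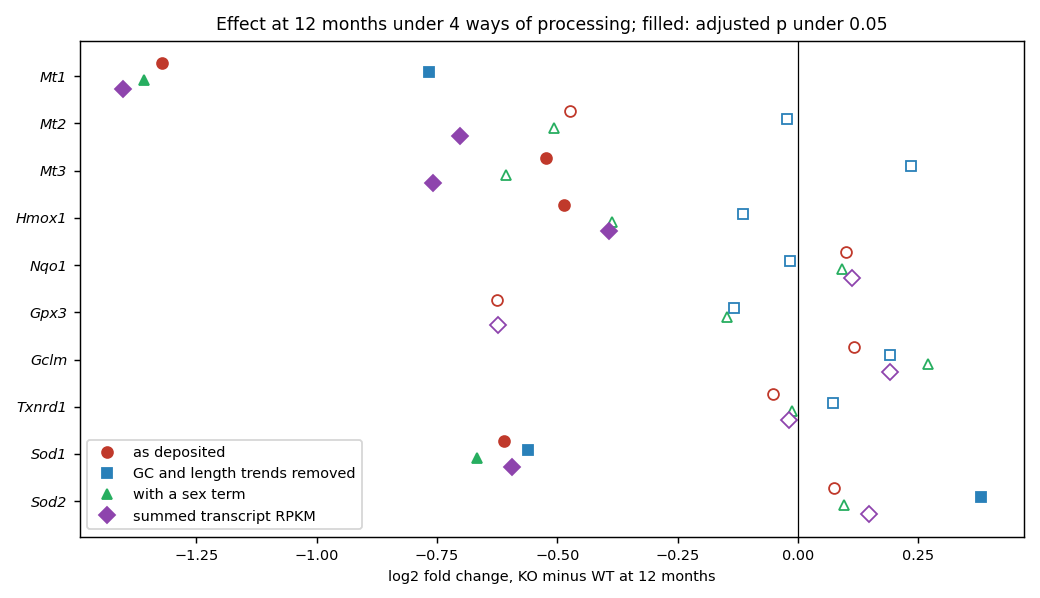
Log2 fold change at 12 months, knockout minus wild type (x axis), of the 10 genes (y axis) as deposited, with GC and length trends removed, with a sex term and on summed transcript RPKM. Filled symbols have an adjusted p under 0.05. Mt1 and Sod1 are filled under all 4, whereas Mt3 and Hmox1 lie at 0.23 and -0.11 once the trends are removed.

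The same genotypes were then compared in young adult retina, at P28. None of the 10 genes was called by limma, in a comparison in which 1.49% of all tested genes were. Of the 10, 4 had an unadjusted p under 0.05, as did 3533 of all 16486 tested genes. Of the 10 fold changes, 9 were negative, with a median log2 fold change of -0.16 against -0.01 for all tested genes. In 6 genes, Mt1, Mt2, Hmox1, Txnrd1, Sod1 and Sod2, every knockout library was below every wild-type library, which held for 13.2% of all tested genes. The genes were chosen with results of these data known, so these counts are a description.

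Mt2 had the largest P28 difference of the 10, at 0.619, 0.553 and 0.532 CPM in P28 knockout, against 1.80, 1.38 and 1.72 CPM in P28 wild type. Both groups were tight and far apart. The log2 fold change was -0.74 ± 0.19 (limma adjusted p = 0.0642), and on summed RPKM it was -1.03 (adjusted p = 0.0389). It was also called without 12-month knockout library 2 (adjusted p = 0.0272), which changes only the shared spread. These were the only 2 of 22 alternative settings that called Mt2 at P28. With a sex term it was at -0.71 (adjusted p = 0.294), and with GC and length trends removed at -0.53 (adjusted p = 0.103).

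Mt1 was at 2.81, 2.58 and 2.85 CPM in P28 knockout, against 6.07, 3.99 and 4.70 CPM in P28 wild type. Knockout values at P28 were close to those at 12 months, while the wild-type values were lower than at 12 months. The log2 fold change was -0.65 ± 0.17 (adjusted p = 0.07), and with summed RPKM it was -0.73 (adjusted p = 0.0408). That was the only 1 of 22 alternative settings that called Mt1 at P28. With a sex term it was at -0.61 (adjusted p = 0.314), and with GC and length trends removed at -0.41 (adjusted p = 0.174). The effect at 12 months minus that at P28 was -0.68 ± 0.24 (adjusted p = 0.112), so the 2 ages were not shown to differ.

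Hmox1 was at 0.974, 1.26 and 0.493 CPM in P28 knockout, against 1.83, 1.60 and 1.90 CPM in P28 wild type (log2 fold change -0.56 ± 0.17, adjusted p = 0.0983). The highest knockout library, number 2, carried the lens RNA, and without it the difference was -0.69 (adjusted p = 0.0327). No other of 22 alternative settings called Hmox1 at P28, and with a sex term it was at -0.66 (adjusted p = 0.277). Red blood cell markers summed to 12.6 to 23.6 CPM in the P28 knockout group and 32.5 to 49.6 CPM in its wild-type group, again lower in knockout.

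Sod1 was at 70.4, 69.6 and 53.1 CPM in P28 knockout, against 100.1, 75.3 and 80.0 CPM in P28 wild type (-0.40 ± 0.14, adjusted p = 0.125). Sod2 was at 195, 210 and 203 CPM in P28 knockout and 244, 212 and 221 CPM in P28 wild type (-0.15 ± 0.08, adjusted p = 0.303). For both, the gap between the nearest libraries of the groups was small against the range within wild type. Txnrd1, at 34.6 to 36.3 CPM in knockout and 38.1 to 39.9 CPM in wild type, differed by -0.13 ± 0.09 (adjusted p = 0.449). Mt3, Nqo1, Gpx3 and Gclm overlapped between the genotypes, with log2 fold changes of -0.09, 0.28, -0.17 and -0.01.

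**Figure D3:**
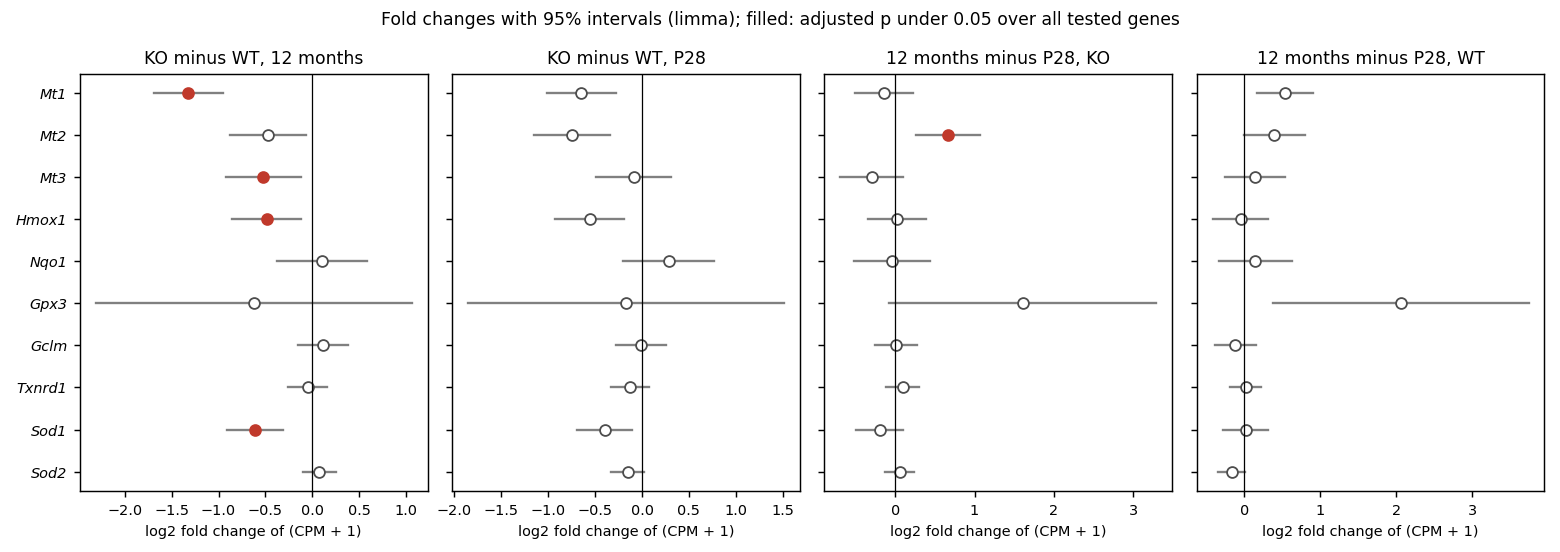
Log2 fold change of (CPM + 1) (x axis) of the 10 genes (y axis) in knockout minus wild type at 12 months and at P28 and in 12 months minus P28 in knockout and in wild type. Points carry 95% limma intervals and are filled where the adjusted p over all genes is under 0.05. Mt1, Mt3, Hmox1 and Sod1 are filled left of 0 at 12 months, Mt2 right of 0 with age in knockout, and Gpx3 has the widest interval in all 4 panels.

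In the test of the difference between the ages, 0 of the 10 genes were called by limma, against 0.176% of all genes. An unadjusted p under 0.05 was found for 1 of 10, Mt1, and for 4397 of all 16486 tested genes. After Mt1, the next in size were Gpx3 (-0.45 ± 1.1), Mt3 (-0.43 ± 0.26, adjusted p = 0.296), Mt2 (0.27 ± 0.27, adjusted p = 0.527) and Sod2 (0.23 ± 0.12, adjusted p = 0.228). The genotype fold change at either age uses no library of the other age, but each shares libraries with the age comparisons. The p-values at the ages are not independent, because all libraries entered the same main fit. That fit gave each gene a spread shared by all comparisons.

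To describe the change with age, 12 months was compared with P28 in each genotype. In knockout, 1 of the 10 genes was called, Mt2, which was higher at 12 months, in a comparison in which 27.2% of all tested genes were called and 13.3% higher. Mt2 was at 2.16, 0.756 and 1.77 CPM in 12-month knockout, against 0.619, 0.553 and 0.532 CPM in P28 knockout. All 3 older libraries lay above all 3 younger ones, as in 18% of all tested genes, by a small gap for 12-month library 2. The log2 fold change was 0.67 ± 0.19 (adjusted p = 0.021), called in 17 of 22 settings. It was not called with a sex term (adjusted p = 0.0838), without 12-month knockout library 1 (0.49, adjusted p = 0.0813) or library 3 (0.59, adjusted p = 0.0572), with only the groups compared (adjusted p = 0.0932) or with no expression filter (adjusted p = 0.0564).

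In wild type, 0 of the 10 genes were called with age by limma, against 5.4% of all tested genes. An unadjusted p under 0.05 was found for 2 of 10, Mt1 and Gpx3, and for 3207 of all 16486 tested genes. Mt1, Mt2 and Gpx3 had every 12-month library above every P28 library, as did 18.9% of all tested genes; the reverse held for 16% of all tested genes. Mt1 differed by 0.54 ± 0.17 (adjusted p = 0.0926) and Mt2 by 0.40 ± 0.19 (adjusted p = 0.27). In knockout, Mt1 was at -0.14 ± 0.17 (adjusted p = 0.561) with overlapping groups. Sod2 ran the other way in wild type, with every 12-month library below every P28 library (-0.17 ± 0.08, adjusted p = 0.285).

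Gpx3 varied more between libraries of 1 group than any other of the 10. It was at 21.7, 45.5 and 44.2 CPM in 12-month knockout, 65.0, 57.6 and 44.3 CPM in 12-month wild type, 6.59, 39.8 and 4.46 CPM in P28 knockout and 32.5, 2.56 and 19.3 CPM in P28 wild type. The highest library was 25.4 times the lowest, and the within-group SD on the log2 scale was 1.20, at or above 99.7% of tested genes (median 0.18). At 12 months minus P28 the log2 fold change was 1.61 ± 0.78 in knockout (adjusted p = 0.137) and 2.06 ± 0.78 in wild type (adjusted p = 0.162). Without P28 knockout library 2, whose Gpx3 signal was the highest at P28 and which also held the most lens RNA, the knockout value was 2.49 (adjusted p = 0.0222).

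Pigment epithelium, a layer that can adhere to dissected retina, was followed by 8 markers. They summed to 29.8, 78.7 and 31.4 CPM in 12-month knockout, 117, 123 and 34.6 CPM in 12-month wild type, 89.5, 55.1 and 108 CPM in P28 knockout and 222, 41.3 and 101 CPM in P28 wild type. The order of the 3 libraries matched that of Gpx3 within 12-month knockout and P28 wild type. It was the reverse of it within P28 knockout, and within 12-month wild type it had the same lowest library but libraries 1 and 2 in the other order. Markers of ciliary body, iris and cornea summed to 2.61, 24.3 and 3.16 CPM in 12-month knockout and 8.04, 7.98 and 5.01 CPM in 12-month wild type. At P28 they summed to 5.58, 7.61 and 4.00 CPM in knockout and 6.24, 2.99 and 8.44 CPM in wild type. Their order matched that of Gpx3 within both 12-month groups and P28 knockout. Within P28 wild type the lowest library was the same, but libraries 1 and 3 were in the other order. Lens markers summed to 41.2, 654 and 14.9 CPM in 12-month knockout and 10.7, 30.9 and 53.8 CPM in 12-month wild type. At P28 they summed to 116, 4872 and 34.6 CPM in knockout and 12.6, 614 and 1749 CPM in wild type. The lens order matched that of Gpx3 within P28 knockout and was the reverse of it within 12-month wild type. It did neither within 12-month knockout and P28 wild type. The part of these tissues in the Gpx3 values was not tested.

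At the other end, Sod2 and Txnrd1 were among the steadiest genes of the retina. Their within-group SDs were 0.08 and 0.09 on the log2 scale, sizes that only 5.68% and 7.50% of tested genes match or undercut. Their lowest and highest libraries differed 1.31-fold and 1.26-fold. The SDs of Mt1, Mt2, Mt3, Hmox1 and Sod1 ran from 0.19 to 0.23, at or above 50.6% (Sod1) to 69.9% (Mt2) of tested genes. The log2(CPM + 1) scale understates the spread of genes near 1 CPM, such as Mt2, Mt3 and Hmox1. In 12-month knockout, Mt3 was at 0.617 ± 0.406 CPM and Mt2 at 1.56 ± 0.73 CPM (SD, n = 3 each).

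Transcript-level values, deposited as RPKM, were read for 39 annotated transcripts of the 10 genes, of which 4 were listed at 0 in all libraries. Of these transcripts 2, Sod2-207 and Gclm-206, were listed at 0 in all 3 12-month knockout libraries and above 0 in the other 9. Of 49932 transcripts above 0 in those 9 libraries, 167 (0.334%) had this pattern. A listed 0 comes from an estimate that shares reads among overlapping transcripts, so it does not show that the transcript was missing.

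Sod2-207, a processed transcript of 1138 bases, was listed at 11.1, 5.43 and 5.60 RPKM in 12-month wild type, 1.79, 11.4 and 1.68 RPKM in P28 knockout and 14.5, 5.58 and 5.94 RPKM in P28 wild type. The long coding Sod2-201, of 5861 bases, was at 37.4, 44.0 and 36.0 RPKM in 12-month knockout, against 24.4, 26.0 and 27.6 RPKM in 12-month wild type. Within Sod2, whose gene level hardly differed, signal was thus assigned to the long form at 12 months in knockout. Gclm gave the same picture: the coding Gclm-206, of 1002 bases, was at 3.53, 3.14 and 1.88 RPKM in 12-month wild type. Its long form Gclm-201, of 5589 bases, was at 11.3, 14.3 and 10.6 RPKM in 12-month knockout, against 6.04, 6.17 and 7.0 RPKM in 12-month wild type. The groups of each long form did not overlap at 12 months. Non-overlap was not counted over all transcripts, so it is a description for every transcript named here and below. Among tested genes, 32.2% were lower without overlap at 12 months.

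In Sod1 the forms moved apart. Coding Sod1-201, of 641 bases, was at 67.4, 53.3 and 66.3 RPKM in 12-month knockout, against 99.8, 99.2 and 96.3 RPKM in 12-month wild type. The retained-intron form Sod1-202, of 3970 bases, was at 5.60, 6.03 and 5.70 RPKM in 12-month knockout, against 4.39, 4.56 and 4.54 RPKM in 12-month wild type. The lower gene value therefore came from the short coding form, while the long form was higher. No transcript was tested on its own. These 3 genes were chosen after their transcript values were seen, and other members ran the other way: Gpx3-201, of 1594 bases, Hmox1-201, of 1569 bases, and Mt2-201, of 511 bases, are the longest forms of their genes, and each was lower in all 12-month knockout libraries than in all 12-month wild-type ones.

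**Figure D4:**
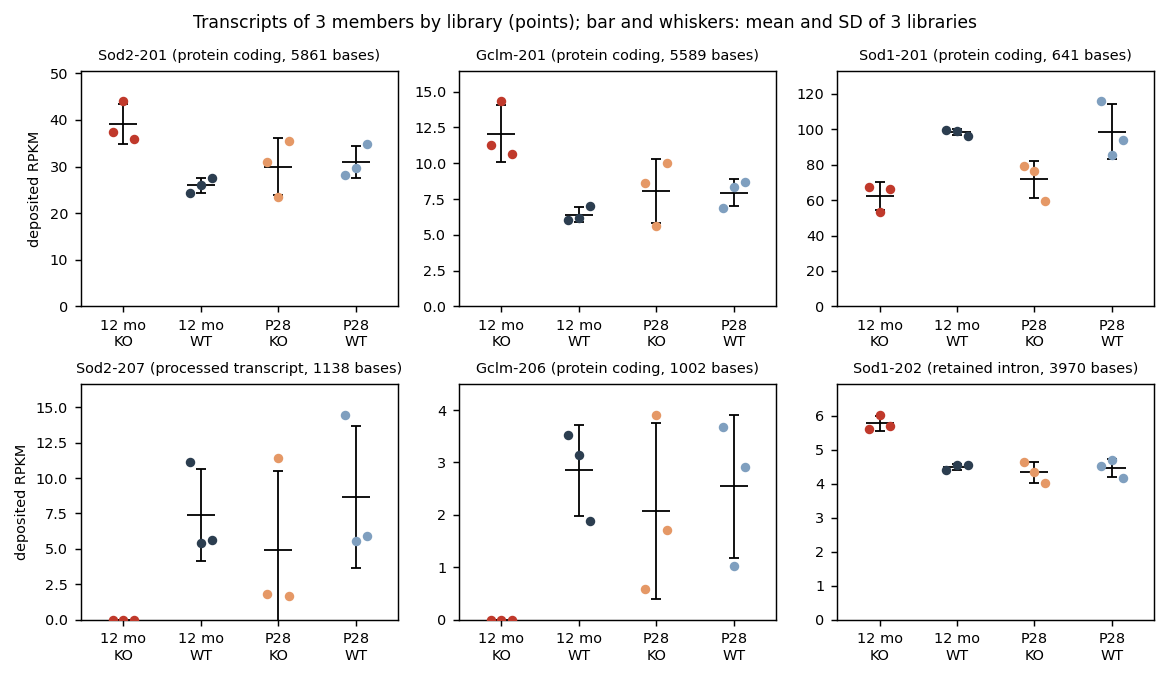
Deposited RPKM (y axis, linear from 0) of 2 transcripts each of Sod2, Gclm and Sod1 in 12-month knockout, 12-month wild type, P28 knockout and P28 wild type (x axis). Points are libraries, and bars and whiskers are the mean and SD of 3 libraries, with whiskers cut at 0. Sod2-207 and Gclm-206 lie at 0 in the 3 12-month knockout libraries, where the long forms reach 36.0 to 44.0 and 10.6 to 14.3 RPKM.

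The genes most like a member were sought over the 12 libraries, as those with the smallest root mean square difference in log2(CPM + 1) after centring each gene on its mean. Nearest to Mt1 was Gstt1, a glutathione transferase, at 0.112 against 0.581 for the median gene, followed by Cactin at 0.184. Gstt1 was at 3.84, 2.57 and 3.37 CPM in 12-month knockout, 9.65, 7.52 and 8.30 CPM in 12-month wild type, 3.76, 3.81 and 3.37 CPM in P28 knockout and 7.21, 4.79 and 4.93 CPM in P28 wild type. Like Mt1, it had every knockout library below every wild-type library at both ages. Mt2 was nearest to the noncoding RNA gene Vax2os (0.18) and the lactate dehydrogenase gene Ldhb (0.181), and Mt3 to the cytokine receptor gene Il11ra1 (0.0934) and Ttf2 (0.127). Hmox1 was nearest to Ube2g2, a ubiquitin-conjugating enzyme (0.102), and Mrm3 (0.114).

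Gpx3 had a close partner in Slc26a4, the anion exchanger pendrin, at 0.299 against 1.38 for the median gene; Lyz2, lysozyme, came next at 0.721. Slc26a4 was at 6.30, 11.9 and 12.9 CPM in 12-month knockout, 19.1, 14.5 and 8.78 CPM in 12-month wild type, 1.12, 8.17 and 1.39 CPM in P28 knockout and 10.7, 0.522 and 5.42 CPM in P28 wild type. The high P28 knockout library 2 and the low P28 wild-type library 2 of Gpx3 stood apart in Slc26a4 too. These partners were chosen for their likeness, so the match is a description.

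Other antioxidant genes, in 8 lists by role, numbered 84 tested genes. At 12 months 8 were higher and 30 lower in knockout, 45.2% of them against the 39.6% of all genes, with a median log2 fold change of -0.24. With GC and length trends removed, 2 were higher and 9 lower, and the median was -0.08. The shares of all genes, for reading the counts of each list below, were 23.5% lower and 16.1% higher as deposited and 5.27% lower and 6.02% higher with the trends removed. Of the other NRF2 targets, which include NADPH-producing enzymes, 7 of 10 fell and 0 rose, and with the trends removed 2 were lower, Tkt and G6pdx. Tkt, transketolase, averaged 21.2 ± 5.50 CPM in knockout and 54.7 ± 7.24 CPM in wild type (-1.35 ± 0.23, adjusted p = 0.00283). With the trends removed it was at -0.85 (adjusted p = 0.0147). Taldo1, transaldolase, fell by 0.87 (adjusted p = 0.00738) and was at -0.49 (adjusted p = 0.0683) with the trends removed. Srxn1, sulfiredoxin, fell by 0.49 (adjusted p = 0.0051) but stood at 0.21 (adjusted p = 0.117) with the trends removed.

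Of the regulators of NRF2, 3 of 8 fell and 2 rose. Sqstm1, which binds KEAP1, fell (-0.44 ± 0.07, adjusted p = 0.0028), as did Nfe2l1, an NRF2 relative (-0.48, adjusted p = 0.0164), and Mafk, a small MAF partner (-0.45, adjusted p = 0.0236). Bach1, a repressor that competes with NRF2 at Hmox1, rose by 0.48 (adjusted p = 0.012), and Cul3, the ligase scaffold that works with KEAP1, by 0.40 (adjusted p = 0.0189). With the trends removed, Bach1 alone of these 5 was called (0.38, adjusted p = 0.0449). Sqstm1 was then at -0.08 (adjusted p = 0.522), Nfe2l1 at -0.07 (adjusted p = 0.663), Cul3 at -0.03 (adjusted p = 0.805) and Mafk at 0.16 (adjusted p = 0.456).

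Glutathione genes fell in 6 of 18 and rose in 0, and 3 were lower with the trends removed: Gstt1, Gstp1 and Mgst3. Gstt1 averaged 3.26 ± 0.64 CPM in knockout and 8.49 ± 1.08 CPM in wild type (-1.16 ± 0.17, adjusted p = 0.00253), Gstp1, another transferase, fell (-1.12, adjusted p = 0.00364), and so did Gpx4, which reduces lipid peroxides (-1.01, adjusted p = 0.00387). With the trends removed, Gstt1 was at -0.65 (adjusted p = 0.0181), Gstp1 at -0.50 (adjusted p = 0.0386) and Gpx4 at -0.26 (adjusted p = 0.139). Gstp1 reads can be shared with near-identical copies. In the thioredoxin and peroxiredoxin list, 6 of 16 fell and 0 rose, led by mitochondrial Txn2 (-0.71, adjusted p = 0.00316) and Prdx5 (-1.15, adjusted p = 0.00408), with Srxn1 as above. With the trends removed 2 were lower, Txn2 (-0.38, adjusted p = 0.0408) and Prdx2 (-0.58, adjusted p = 0.0364), and Prdx5 was at -0.57 (adjusted p = 0.0515).

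Copper chaperones were read because Sod1 needs copper. Ccs, the chaperone that loads copper into SOD1, averaged 2.92 ± 0.41 CPM in 12-month knockout and 6.09 ± 0.97 CPM in 12-month wild type (-0.85 ± 0.18, adjusted p = 0.00442). Atox1, the copper chaperone of the secretory pathway (-1.14, adjusted p = 0.00541), and Sod3, the extracellular dismutase (-0.95, adjusted p = 0.03), also fell, which makes 3 of 6, and 0 rose. None of the 3 was called with the trends removed (Ccs -0.24, Atox1 -0.33, Sod3 -0.76).

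Of 11 zinc sensors and transporters, Slc39a7, which releases zinc from the endoplasmic reticulum, fell (-1.12, adjusted p = 0.00316), while Slc39a10, a zinc importer (0.47, adjusted p = 0.0085), and Slc30a4, a zinc exporter (0.50, adjusted p = 0.0164), rose. With the trends removed, Slc39a7 stayed lower (-0.45, adjusted p = 0.0439), while Slc39a10 was at 0.13 (adjusted p = 0.373) and Slc30a4 at 0.12 (adjusted p = 0.475). Slc30a1, another zinc exporter, was called higher with the trends removed (0.69, adjusted p = 0.0354) and not as deposited (0.37, adjusted p = 0.0742).

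In the heme and iron list, 3 of 9 fell and 1 rose. The ferritin chains Ftl1 (-1.65, adjusted p = 0.00342) and Fth1 (-0.43, adjusted p = 0.00764) and the constitutive heme oxygenase Hmox2 (-0.53, adjusted p = 0.00643) fell, and the transferrin receptor gene Tfrc rose by 0.65 (adjusted p = 0.00725). Of these 4, Ftl1 alone was called with the trends removed (-0.95, adjusted p = 0.0221); Fth1 was at -0.15 (adjusted p = 0.264), Hmox2 at -0.08 (adjusted p = 0.61) and Tfrc at 0.30 (adjusted p = 0.108). Ferritin has near-identical copies in the genome, so its values are uncertain. Genes of selenoprotein synthesis and selenium supply split, with 3 of 8 higher and 2 lower. Pstk (0.38), Sepsecs (0.29) and Selenop (0.46) rose, and Selenow (-1.11) and Eefsec (-0.70) fell, at adjusted p-values of 0.00424 to 0.0411. These 5 calls were lost with the trends removed: Pstk was at 0.30, Sepsecs at -0.02, Selenop at 0.33, Selenow at -0.42 and Eefsec at -0.10, at adjusted p-values of 0.0577 to 0.873.

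**Figure D5:**
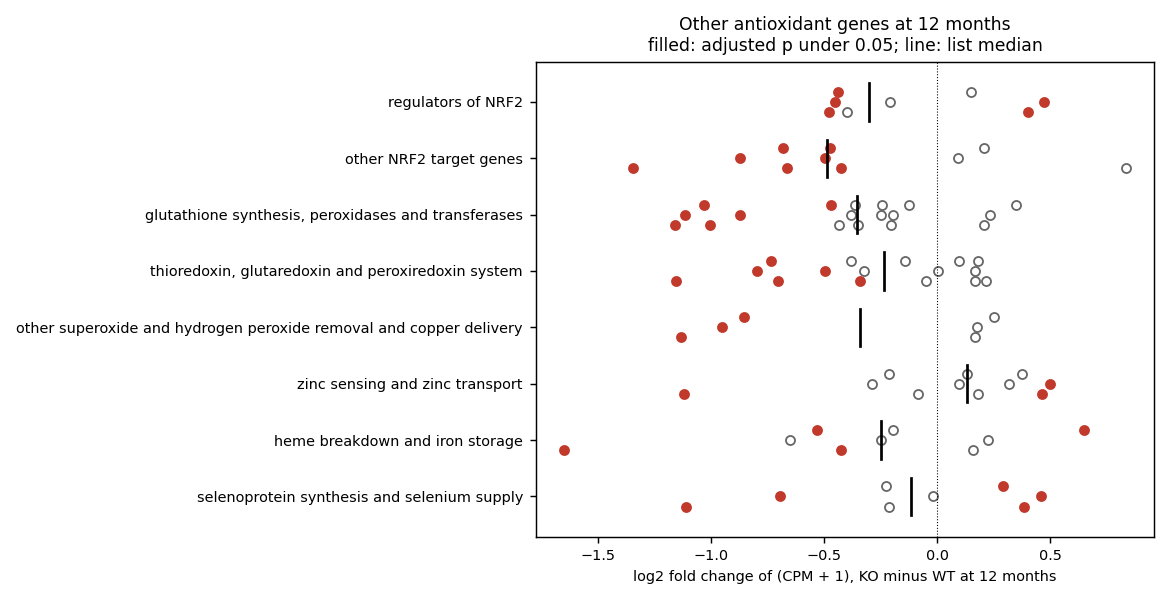
Log2 fold change of (CPM + 1) at 12 months, knockout minus wild type (x axis), of single genes in 8 lists by role (y axis). Filled points have an adjusted p under 0.05 and the vertical line is the list median. Among the other NRF2 target genes 7 of 10 points are filled and all 7 lie below 0, while in the zinc list 1 filled point lies below 0 and 2 above.

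At P28, 1 of the 84 genes was called, 1.19% against the 1.49% of all genes: Sqstm1 averaged 69.4 ± 0.93 CPM in knockout and 93.3 ± 3.90 CPM in wild type (-0.42 ± 0.07, adjusted p = 0.0225). It was called lower at both ages as deposited and at neither with the trends removed (-0.29, adjusted p = 0.0699, at P28 and -0.08, adjusted p = 0.522, at 12 months). With age in wild type, Me1, malic enzyme, rose (0.35 ± 0.08, adjusted p = 0.0254) and Txn1, cytosolic thioredoxin, fell (-0.55 ± 0.12, adjusted p = 0.0189), 2 of 84 or 2.38% against 5.4% of all genes. With age in knockout, 8 rose and 6 fell, 16.7% against 27.2%. Me1 rose by 0.69 (adjusted p = 0.000148), Tfrc by 0.65 (adjusted p = 0.00956) and Pstk by 0.51 (adjusted p = 0.00484), and Tkt (-0.90, adjusted p = 0.0126), Mafg (-0.73, adjusted p = 0.0104) and Ccs (-0.71, adjusted p = 0.0125) fell. Gsto1 also rose (0.72, adjusted p = 0.0285) and Gstm7 fell (-0.66, adjusted p = 0.0166). Each of the calls with age named so far was also made with the trends removed. The other calls in knockout were lost in that fit: Cul3, Prdx1, Slc30a4 and Slc30a5 rose, and Atox1 and Txnrd3 fell, as deposited only. With the trends removed, their adjusted p-values were 0.0864 to 0.268. That fit also made calls not made as deposited. It called 1 of these genes lower at P28, Prdx3 (-0.43, limma adjusted p = 0.0373). With age it called 2 higher and 5 lower in wild type, and 8 higher and 7 lower in knockout. The shares of all genes called in that fit were 2.17% at P28, 7.36% with age in wild type and 22.4% with age in knockout.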

How the data were processed

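Poly(A) RNA was isolated on RNeasy columns and made into stranded libraries, per the labels' protocols. Per the submitters' processing notes, kallisto 0.45.0 with Ensembl 102 gave transcript counts, which tximport 1.30.0 summed to genes and edgeR 4.0.3 normalized by TMM. The notes name a human reference, but the identifiers are mouse, and 51903 of 53028 genes occur in the GRCm38 annotation. The gene signal was deposited by the authors as TMM-scaled CPM, not logged. The transcript RPKM values were deposited by the authors; how they were made is not given in the sources used here. Neither table holds counts, and between 11.0 and 28.4% of low values were whole reads to within 0.01 reads, so no count model was run. Depth was read from the most frequent positive value of each library, taken as 1 read. Floors of 3 reads cover counting error only.

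The test was limma 3.58.1 in R 4.3.3, run on log2(CPM + 1) of genes with at least 1 CPM in at least 3 libraries (4 group means, trended eBayes, Benjamini-Hochberg over all genes, threshold 0.05), and the steps were tested on simulated data. Fold changes understate changes of genes near 1 CPM. Trends were splines of 5 degrees of freedom in GC content and length (98.7% of tested genes have both). Both were means over the annotated transcripts of a gene, not weighted by signal. Replicate numbers did not pair the libraries: 4 of 18 same-number pairs correlated above 0.1 (-0.36 to 0.31). Symbols with several copies counted once in the lists.

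Named are the 10 genes, up to 3 genes per list and comparison by smallest p plus those that make a small count clear, and the 2 tested genes nearest to each of 5 members. Members and lists were chosen with earlier results of these data known. Alternatives were pseudocounts of 0.1 and 5 CPM, no filter, 5 CPM in 6 libraries, quantile and median-of-ratios scaling, summed RPKM, trend removal, a sex term (Xist above 100 CPM marked females), only the groups compared, a replicate block and leaving out each library. Promoter windows are from RefSeq (GRCm38.p6). Tables and figures used Python 3.11.15, pandas 2.3.3, numpy 2.4.6 and matplotlib 3.10.9. Raw reads were not analysed here.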

Additional observations from a re-analysis of the deposited data

How the results depend on the processing

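Mt1 and Sod1 at 12 months kept their direction and call under all alternatives that tested them. For Sod1, the fit with trends removed did not use the length of its main form. In all, 1034 of the recomputed values kept both direction and side of the threshold, 24 lost a call, 10 gained one and 47 turned. Reads behind Mt1, Mt2, Mt3 and Hmox1 were few, which limits their precision.

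The 4 genes called at 12 months became 2 with no expression filter, quantile scaling or a sex term, and 1 with the filter of 5 CPM in 6 libraries, which tests only 5 of them; leaving out single libraries gave 2 to 4. At P28 the count of 0 became 2 with summed RPKM and was 0 to 1 without single libraries. With age in wild type it became 1 with a pseudocount of 5 CPM and stayed 0 without any single library. With age in knockout the 1 became 0 with no filter, the 5 CPM filter, a sex term or only the groups compared, and 0 to 2 without single libraries. The difference between ages stayed at 0.

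All genes called at P28 (246) became 67 with no filter, 370 with the 5 CPM filter, 1 with a sex term and 0 with only the groups compared (limma; 2615 at an unadjusted p under 0.05), and 3 to 1404 without single libraries: 1404 without P28 knockout library 2 and 3 without P28 wild-type library 3. At 12 months 6536 became 1837 with trends removed and 3552 to 7761 without single libraries. With age in wild type 891 became 361 with a sex term, 2293 with only the groups compared and 418 to 1651 without single libraries. With age in knockout 4483 became 1569 with only the groups compared and 2468 to 5539 without single libraries. For the difference between ages 29 became 5 with no filter or summed RPKM, 16 with trends removed, 0 with a sex term (limma; 2962 at an unadjusted p under 0.05) and 1 to 2501 without single libraries. The cause was not tested.

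Directions turned as follows. With GC and length trends removed, P28 values were 0.21 for Mt3, 0.016 for Gpx3 and 0.025 for Gclm. The 12-month values were 0.23 for Mt3, -0.017 for Nqo1 and 0.074 for Txnrd1. Values with age were -0.017 for Txnrd1 in wild type and 0.13 for Mt1 and 0.073 for Mt3 in knockout, and the difference between ages was 0.021 for Mt3. Quantile scaling gave 0.0072 for Txnrd1 and -0.13 for Sod2 at 12 months, -0.0012 for Txnrd1 with age in wild type, and 0.085 for Nqo1, -0.00018 for Gclm and -0.051 for Sod2 with age in knockout. Txnrd1 with age in wild type was -0.021 with summed RPKM and -0.023 with a sex term, and Gpx3 in the difference between ages was 0.50 with a sex term.

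Leaving out single libraries, the values ranged at P28 from -0.19 to 0.028 for Mt3, -1.13 to 0.49 for Gpx3 and -0.14 to 0.051 for Gclm, and at 12 months from -0.046 to 0.19 for Nqo1 and -0.11 to 0.034 for Txnrd1. With age in wild type they ranged from -0.13 to 0.081 for Hmox1, -0.11 to 0.27 for Nqo1, -0.032 to 0.056 for Txnrd1 and -0.065 to 0.14 for Sod1. With age in knockout they ranged from -0.15 to 0.15 for Hmox1, -0.20 to 0.048 for Nqo1 and -0.034 to 0.057 for Gclm. In the difference between ages they ranged from -0.094 to 0.21 for Hmox1, -0.34 to 0.072 for Nqo1 and -1.11 to 0.50 for Gpx3.

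With the replicate number as a block, the counts of members called stayed at 0, 4, 0, 1 and 0 in the order P28, 12 months, age in wild type, age in knockout and difference between ages, and those of all genes were 59, 5907, 667, 3827 and 4. The libraries share only a number.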

Other observations

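The metallothionein transcripts divided the genotype difference unevenly. Most Mt1 signal was assigned to coding Mt1-201, of 549 bases, at 4.32, 2.43 and 2.37 RPKM in 12-month knockout, 12.5, 9.98 and 12.1 RPKM in 12-month wild type, 4.20, 3.60 and 4.19 RPKM in P28 knockout and 9.24, 5.77 and 7.31 RPKM in P28 wild type. Its groups did not overlap between genotypes at either age, as for the gene. The share of all transcripts without overlap was not counted. Coding Mt1-202, of 1085 bases and the longest form, held at most 0.83 RPKM in any library. It was at 0.597, 0.830 and 0.549 RPKM in 12-month knockout, against 0.435, 0.146 and 0.548 RPKM in 12-month wild type. Every knockout library thus lay above every wild-type one at 12 months, by a very small gap. At P28 the groups of Mt1-202 overlapped.

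Mt2 was split between coding Mt2-201, of 511 bases, and coding Mt2-202, of 388 bases, whose annotated start lies downstream. Mt2-201 was listed at 0, 0.490 and 0 RPKM in 12-month knockout, against 3.32, 0.727 and 2.83 RPKM in 12-month wild type, while Mt2-202 was at 5.06, 1.33 and 3.89 RPKM in 12-month knockout, against 2.88, 5.11 and 3.47 RPKM in 12-month wild type. At 12 months the groups were therefore apart in Mt2-201 and overlapped in Mt2-202. At P28 it was the other way round. Mt2-202 was at 0.593, 0.679 and 1.21 RPKM in P28 knockout, against 3.40, 2.73 and 3.49 RPKM in P28 wild type, and Mt2-201 overlapped. The 2 estimates draw on overlapping sequence and rest on few reads, and no test was made of them.

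Gpx3 signal came from Gpx3-201 and Gpx3-202 in all libraries. Gpx3-201 was at 9.85, 18.5 and 17.9 RPKM in 12-month knockout, against 33.6, 30.1 and 26.4 RPKM in 12-month wild type, so that this form did not overlap between the genotypes where the gene did. Gpx3-202 was at 6.78, 18.8 and 16.5 RPKM in 12-month knockout, against 17.2, 15.5 and 8.82 RPKM in 12-month wild type, and overlapped. No transcript was tested on its own.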
